A study of Mus musculus with 40 samples.

Results

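The 10 genes described here encode hydrolases that sit in the brush border of the small intestinal epithelium or at its surface. They are the disaccharidases *Sis*, *Lct*, *Mgam* and *Treh*, the peptidases *Anpep*, *Enpep*, *Dpp4*, *Mep1a* and *Mep1b*, and the enteropeptidase gene *Tmprss15*. They were chosen by name from the 15958 genes of the expression table, and all 10 were found there. Bulk RNA was sequenced from the duodenum and from the post-anastomotic ileum of male C57BL/6 wild type mice operated at 8 weeks of age. In each region, 3 libraries came from sham-operated mice given vehicle (sham vehicle), 4 from mice given vehicle after small bowel resection (SBR vehicle) and 4 from mice given WUSTL0717 at 30 mg/kg after the same resection (SBR WUSTL0717). WUSTL0717 is an amide analog of GW3965 and an agonist of the liver X receptors (LXRs), which the study examined for action restricted to the gut. Vehicle or compound was given daily for 7 weeks from 3 weeks after surgery, and all mice were on a liquid diet. The labels give the extent of the resection as 50 to 60%, the study's methods give a larger share, and sham surgery cut and rejoined the bowel without removing any. No group received WUSTL0717 after sham surgery. Whether a duodenal and an ileal library came from the same mouse is not given in the sources used here, and p-values measure the spread between these libraries.

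The brush border is the layer of microvilli on the luminal face of the enterocyte, and its hydrolases complete digestion there. Disaccharidases split sugars and the ends of starch into monosaccharides, aminopeptidases and dipeptidyl peptidases trim peptides, and meprins cut within peptide chains. Enteropeptidase activates pancreatic trypsinogen in the proximal intestine. Along the normal small intestine these enzymes follow different gradients, and enterocytes acquire them as they leave the crypt and climb the villus.

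Values are log2 TPM (a length-scaled share of each library on a log2 scale) after the authors' batch correction with ComBat. The correction moved each gene's values in the intestine and in the liver, the other batch, and after it the means of the members in the intestine differed from those in the liver by only -0.75 to 0.21. As a trace of this, *Sis* is listed at 4.74 in 17 of the 18 liver libraries, to the last digit. Levels are therefore compared only within a gene and among the 22 intestinal libraries, and never between genes. ComBat changes each gene linearly, so the log2 difference of a gene need not be on the same scale as that of another gene. The number of reads behind a value is unknown. The ileal libraries were separated from the duodenal ones by the ileal markers *Fabp6* (5.87 to 8.54 against -1.69 to 0.53) and *Slc10a2* and by the duodenal markers *Pdx1* and *Slc40a1*, while *Osr2* and *Nr0b2* went against the region they were listed for. The 7 pancreatic genes of the table were present in every duodenal library, where their mean log2 value was between 1.58 and 7.48, against -0.95 to -0.90 in the ileum. In bulk tissue, fewer cells of a type and less RNA per cell cannot be told apart. After SBR the median log2 difference over all 15093 genes tested in the duodenum was -0.36, and the ileum exceeded the duodenum by a median of 0.52 in sham vehicle, 0.98 in SBR vehicle and 0.95 in SBR WUSTL0717. SBR vehicle library 1 of the duodenum stood apart from the other 3, with a median over all genes of 3.08 against 2.13 to 2.61.

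**Figure D1:**
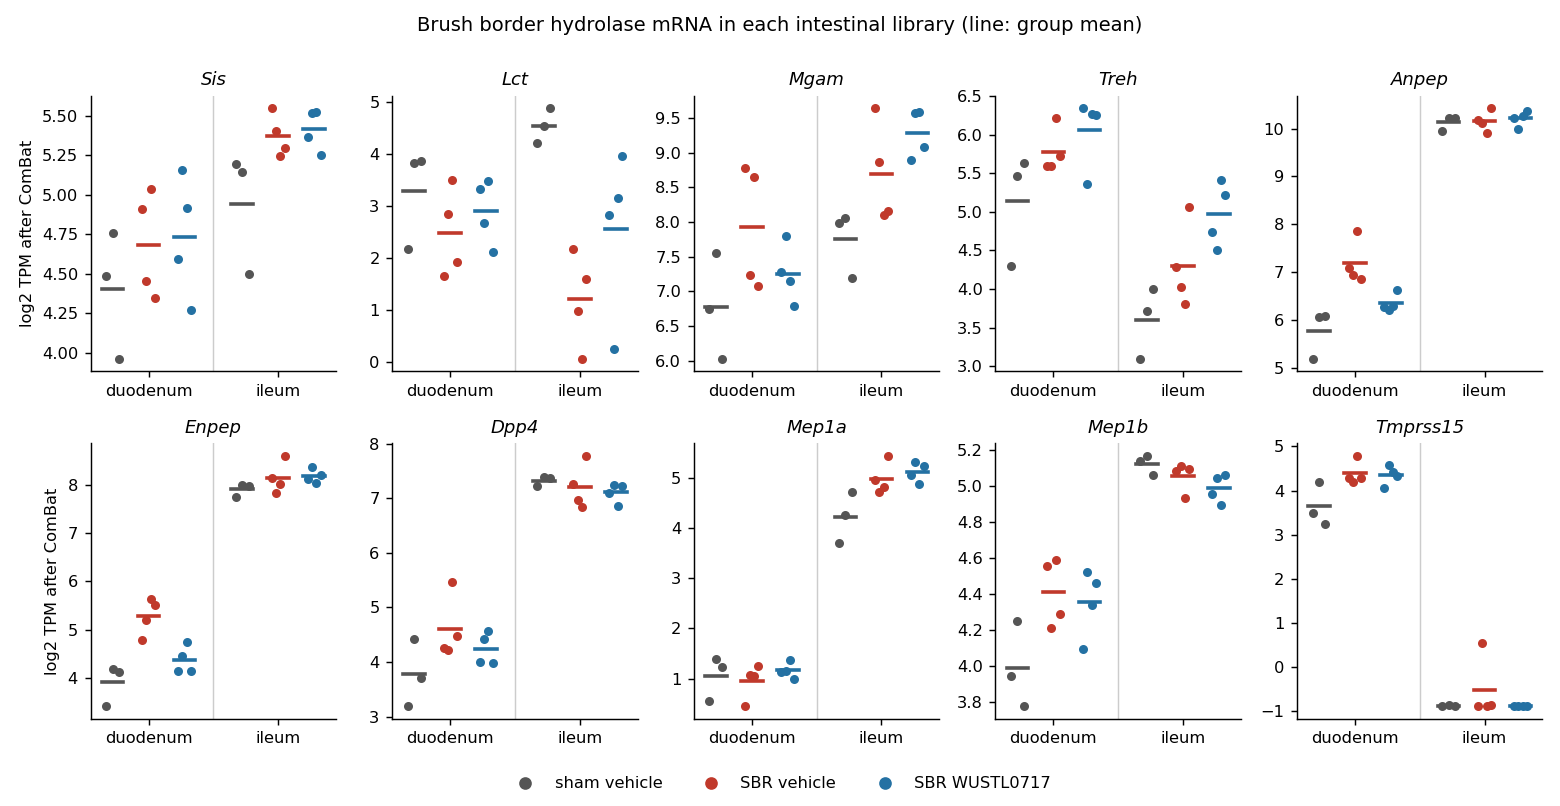
Values of each member in each of the 22 intestinal libraries, as log2 TPM after ComBat on a separate vertical axis per gene, with points for libraries and a line for the group mean (n = 3, 4 and 4 per region). The ileal libraries sit above all duodenal ones for *Anpep*, *Enpep*, *Dpp4*, *Mep1a* and *Mep1b* and below all of them for *Tmprss15*, and ileal *Lct* is between 0.06 and 2.18 in SBR vehicle against 4.21 to 4.88 in sham vehicle.

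The first comparison set the ileum against the duodenum in each group. The 5 brush border peptidases were higher in the ileum in every group, though for *Mep1b* the sign depends on the scaling, and *Treh* and *Tmprss15* were higher in the duodenum. In sham vehicle, 5 of 10 members were called higher in the ileum and 2 lower (limma, adjusted p under 0.05), where 10.8% and 3.83% of the 15923 genes tested were called in those directions. In SBR vehicle 6 members were called higher and 2 lower against 50.2% and 6.77% of all genes, and in SBR WUSTL0717 7 and 2 against 48.7% and 7.13%. The regions did not overlap for 6 members with the ileum higher and 2 with it lower in sham vehicle (30.8% and 7.13% of all genes), for 6 and 2 in SBR vehicle (37.6% and 5.77%) and for 7 and 1 in SBR WUSTL0717 (41.4% and 6.37%). *Tmprss15* is among the lower members in each of these counts and enters the medians given next. It passed the filter only through the duodenum, so its place among them was fixed in advance and is no support. Without it, *Treh* was the only member called lower in each group, and no member was lower without overlap in SBR WUSTL0717. The median difference of the 10 members was 1.19 in sham vehicle, 0.72 in SBR vehicle and 1.36 in SBR WUSTL0717, beside the medians over all genes given above.

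*Anpep*, which encodes aminopeptidase N and removes neutral residues from the amino end of peptides, lies at chr7:79821803-79861059 on the minus strand (GRCm38). In sham vehicle its log2 TPM was 5.19, 6.05 and 6.07 in the duodenum and 9.95, 10.23 and 10.21 in the ileum. All ileal libraries of all groups lay above all duodenal ones. The difference was 4.36 ± 0.36 (SE) in sham vehicle (limma, adjusted p = 2.07e-08), 2.97 ± 0.31 in SBR vehicle (3.78e-07) and 3.86 ± 0.31 in SBR WUSTL0717 (6.64e-09). Less the median over all genes these differences were 3.84, 1.99 and 2.92.

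*Enpep* encodes glutamyl aminopeptidase, which removes acidic residues and lies at chr3:129269175-129332720. Its sham vehicle levels were 3.42, 4.19 and 4.14 in the duodenum and 7.75, 8.00 and 7.98 in the ileum. The ileum was higher by 3.99 ± 0.34 (SE) in sham vehicle (adjusted p = 3.12e-08), by 2.86 ± 0.30 in SBR vehicle and by 3.81 ± 0.30 in SBR WUSTL0717, and no ileal library overlapped a duodenal one. *Dpp4*, which encodes dipeptidyl peptidase 4 and removes dipeptides that end in proline or alanine, was at 3.19, 4.42 and 3.71 in the sham vehicle duodenum and 7.22, 7.39 and 7.37 in the ileum. Its ileal excess was 3.55 ± 0.39 (SE), 2.61 ± 0.34 and 2.87 ± 0.34 in the same order of groups, again with no overlap. In the groups with SBR these sizes were 1.67 in vehicle with each library centred on its median and 1.71 with WUSTL0717 when centred on the microvillus list, both still called. The annotated antisense gene *Gm13561* overlaps *Dpp4*. Other members overlap annotated genes too, among them *Anpep* with *Gm44974* on the same strand. The study counted only unambiguous reads, and the strand setting and the share of reads lost to such overlaps are not given in the sources used here.

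The meprin genes are described next, each on its own scale. *Mep1a*, the meprin alpha subunit, was at 0.56, 1.39 and 1.22 in the sham vehicle duodenum and at 3.71, 4.26 and 4.72 in the ileum. The ileum was higher by 3.17 ± 0.32 (SE) in sham vehicle, 4.02 ± 0.28 in SBR vehicle and 3.95 ± 0.28 in SBR WUSTL0717, with adjusted p between 3.59e-07 and 4.53e-10. With duodenal values near 1 the size depends on the scale. A pseudocount of 5, applied as if ComBat had not moved the values, gave 1.90, 2.58 and 2.63 in the same order, each still called. *Mep1b*, the meprin beta subunit, was at 3.95, 4.25 and 3.78 in the sham vehicle duodenum and at 5.14, 5.17 and 5.06 in the ileum, without overlap. Its ileal excess was 1.13 ± 0.27 (SE) in sham vehicle (adjusted p = 0.00634), 0.64 ± 0.23 in SBR vehicle (adjusted p = 0.0222) and 0.63 ± 0.23 in SBR WUSTL0717 (adjusted p = 0.0246). Less the median over all genes, the *Mep1b* difference was 0.61 in sham vehicle and -0.33 and -0.31 in the groups with SBR, so the direction depends on the scaling. In sham vehicle it was no longer called with each library centred on its median (adjusted p = 0.146), and centred on the microvillus list its sign turned (-0.040). The *Mep1b* call was also lost without duodenal library 2 or 4 in SBR vehicle (adjusted p = 0.0602 and 0.0529) and without duodenal library 1 or ileal library 4 in SBR WUSTL0717 (0.065 and 0.0509).

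Among the disaccharidases, *Treh* encodes trehalase, which splits trehalose. It was at 4.30, 5.47 and 5.64 in the sham vehicle duodenum and at 3.10, 3.72 and 4.00 in the ileum, without overlap. The ileum was lower by 1.53 on the log2 scale in sham vehicle (difference -1.53 ± 0.43 SE, adjusted p = 0.0192), and the difference was -1.49 ± 0.37 in SBR vehicle (adjusted p = 0.00221) and -1.09 ± 0.37 in SBR WUSTL0717 (adjusted p = 0.0171). Less the median over all genes these were -2.05, -2.46 and -2.03. In sham vehicle the call was lost without ileal library 1 or 2 or duodenal library 2 or 3, and it held in 2 of the 6 fits that left out a library, with adjusted p between 0.00643 and 0.0879. In SBR WUSTL0717 it was lost without ileal library 2 (adjusted p = 0.0577).

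*Sis* encodes sucrase-isomaltase, which splits sucrose and the branch points of starch, and lies at chr3:72888557-72967863. Its levels in the sham vehicle groups overlapped, at 4.48, 4.76 and 3.96 in the duodenum and 5.19, 5.14 and 4.50 in the ileum. After SBR the regions no longer overlapped, with a difference of 0.69 ± 0.29 (SE) in vehicle (adjusted p = 0.0455) and 0.68 ± 0.29 with WUSTL0717 (adjusted p = 0.0485). The call held in only 2 of the 8 fits that left out a library in SBR vehicle, those without duodenal library 1 or 3 (adjusted p up to 0.126 in the others), and in 1 of 8 in SBR WUSTL0717, that without duodenal library 2 (up to 0.158). Less the median over all genes these were -0.29 and -0.27, so here too the sign depends on the scaling. *Mgam*, the related maltase-glucoamylase that releases glucose from the ends of starch chains, was called between regions only in SBR WUSTL0717, where it was higher in the ileum by 2.03 ± 0.46 (SE, adjusted p = 0.00127). Its 4 ileal values there were 8.90, 9.57, 9.59 and 9.09, and its duodenal values 7.28, 7.79, 7.15 and 6.79. The difference was 1.15 with each library centred on its median (adjusted p = 0.0456) and 0.87, no longer called, when centred on the microvillus list (adjusted p = 0.152). No interaction of region with SBR or WUSTL0717 was called for *Mgam*. *Lct*, the lactase gene, was higher in the sham vehicle ileum (4.21, 4.55 and 4.88) than in the duodenum (2.18, 3.83 and 3.88) without overlap, yet the difference of 1.25 ± 0.73 (SE) was not called (adjusted p = 0.241). It was 0.69 without duodenal library 1, 0.80 with each library centred on its median and 0.08 when centred on the microvillus list. In the other groups the ileal and duodenal *Lct* values overlapped.

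*Tmprss15* was a duodenal transcript in these libraries. Its duodenal values were 3.48, 4.19 and 3.25 in sham vehicle, 4.30, 4.19, 4.79 and 4.29 in SBR vehicle and 4.07, 4.59, 4.42 and 4.33 in SBR WUSTL0717. In the ileum 8 of 11 libraries were at its lowest listed value, -0.89, to the last digit. The other ileal values were -0.87, -0.86 and 0.55, the last from SBR vehicle library 2. No fold is given for this gene against a group at the lowest listed value, and it was left out of the fits of the ileum because its mean there was under 1.

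**Figure D2:**
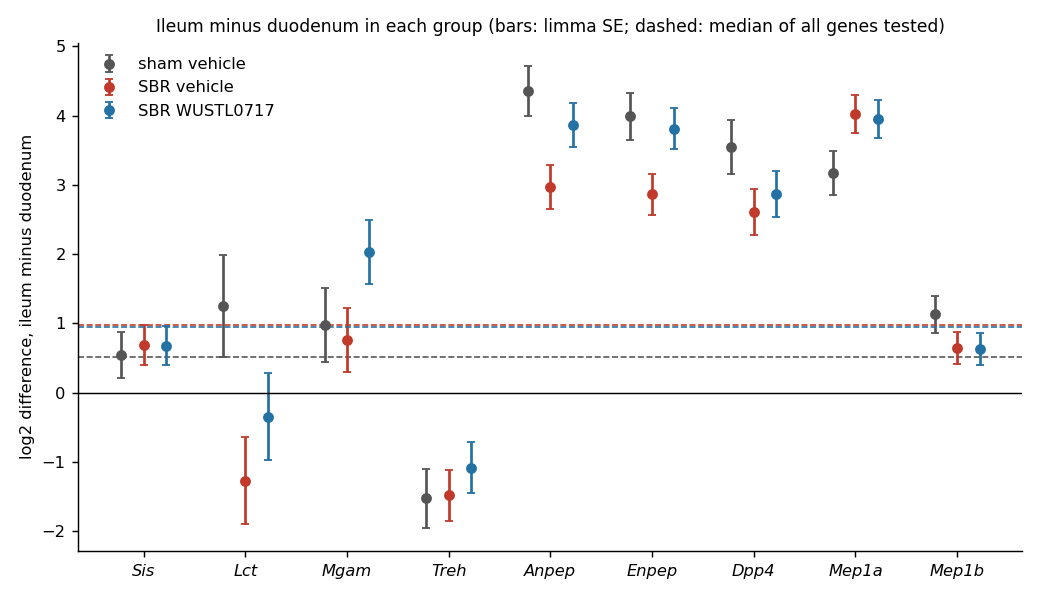
Log2 difference of the ileum minus the duodenum for 9 members in sham vehicle, SBR vehicle and SBR WUSTL0717, with bars for the limma standard error and dashed lines for the median over all genes tested in each group. *Anpep*, *Enpep* and *Dpp4* lie between 2.61 and 4.36 and *Treh* between -1.53 and -1.09, while *Sis* and *Mep1b* lie below the dashed lines of the groups with SBR.

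The next comparison asked how the bowel that remained after SBR differed from sham, first in the duodenum. *Anpep* and *Enpep* were higher after SBR in all 4 libraries than in any sham library, and *Lct* and *Mep1a* were the only members with a lower mean. Of the 10 members, 8 had a higher mean, and their median difference was 0.70 against -0.36 over all genes tested. No member and no gene was called by limma at an adjusted p under 0.05 (0 of 15093 genes, 0%), whereas 2 members and 2426 genes (16.1%) had an unadjusted p under 0.05. The 2-sample test called 0 members and 1 gene, and limma with library weights called 2 members and 2497 genes. Groups did not overlap, with SBR higher, for 2 of 10 members and for 3.41% of all genes.

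Duodenal *Anpep* was at 7.09, 6.94, 7.86 and 6.85 in SBR vehicle, against 5.19, 6.05 and 6.07 in sham vehicle. The lowest value after SBR was above the highest sham value. The difference was 1.41 ± 0.41 (SE, limma adjusted p = 0.271), and the exact two-sided permutation test gave p = 0.0286, the smallest that 4 libraries against 3 allow. Duodenal *Enpep* was at 4.78, 5.19, 5.64 and 5.51 in SBR vehicle against 3.42, 4.19 and 4.14, a difference of 1.36 ± 0.38 (SE, limma adjusted p = 0.269) with the same exact p. Without SBR vehicle library 1, *Enpep* differed by 1.53 and was called (adjusted p = 0.0497), and *Anpep* differed by 1.44 and was not (adjusted p = 0.0675). In all, 70 exact tests of single members were made over the 7 comparisons of groups.

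The other duodenal members overlapped between SBR vehicle and sham vehicle. *Mgam* was at 8.77, 7.23, 8.65 and 7.07 after SBR and at 6.74, 7.56 and 6.03 in sham, so the SBR libraries split into a pair above all sham values and a pair within them. *Tmprss15* was higher on average by 0.75 and *Dpp4* by 0.83, and neither had an unadjusted p under 0.05. *Sis*, *Treh* and *Mep1b* differed by 0.28 to 0.65. *Lct* was at 1.65, 2.85, 3.50 and 1.92 against 2.18, 3.83 and 3.88, with a mean lower by 0.82.

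Promoter windows are shown for *Anpep* and *Enpep*, whose groups separated in the most comparisons, and for *Lct* and *Sis*, chosen after their values were seen. *Lct* and *Sis* are disaccharidase genes that separated in the ileum after SBR, as did *Mgam*, whose window is not printed. Each is the RefSeq window (GRCm38.p6) from 250 bases before to 50 after the start of the gene, 5′ to 3′ on the gene's own strand, here minus for all 4. The *Anpep* window (chr7:79848161-79848460) is 72.3% G and C and lies inside the longer GENCODE gene, the *Enpep* window (chr3:129332700-129332999) is 51.3% and the *Lct* window (chr1:128328269-128328568) 44.7%. The *Sis* window is chr3:72967814-72968113. Capitals mark the matches to the motifs searched on both strands.
Anpep: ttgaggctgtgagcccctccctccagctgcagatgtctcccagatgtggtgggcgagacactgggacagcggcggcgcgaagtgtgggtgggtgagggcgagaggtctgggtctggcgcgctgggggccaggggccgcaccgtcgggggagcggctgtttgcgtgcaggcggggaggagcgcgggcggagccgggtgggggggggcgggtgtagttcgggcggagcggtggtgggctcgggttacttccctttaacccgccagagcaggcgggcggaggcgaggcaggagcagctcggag
Enpep: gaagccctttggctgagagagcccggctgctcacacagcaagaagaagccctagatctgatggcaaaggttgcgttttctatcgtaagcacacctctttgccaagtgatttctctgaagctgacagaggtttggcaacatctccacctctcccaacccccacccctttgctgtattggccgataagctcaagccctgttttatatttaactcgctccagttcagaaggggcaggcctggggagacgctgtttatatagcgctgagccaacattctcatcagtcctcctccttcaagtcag
Lct: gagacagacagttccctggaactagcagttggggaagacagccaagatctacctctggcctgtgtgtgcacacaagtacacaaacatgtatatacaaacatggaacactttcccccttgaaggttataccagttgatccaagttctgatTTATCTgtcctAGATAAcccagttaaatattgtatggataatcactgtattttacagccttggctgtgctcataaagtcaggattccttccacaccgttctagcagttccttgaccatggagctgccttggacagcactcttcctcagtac
Sis: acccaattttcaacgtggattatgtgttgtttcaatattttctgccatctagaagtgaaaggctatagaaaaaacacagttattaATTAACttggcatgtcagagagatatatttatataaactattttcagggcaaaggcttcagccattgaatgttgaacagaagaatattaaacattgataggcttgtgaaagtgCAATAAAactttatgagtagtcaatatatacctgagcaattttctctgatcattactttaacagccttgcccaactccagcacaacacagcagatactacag
The motifs were AGATAA for GATA factors, TTTATNG for CDX, GTTAAT for HNF1, the longer palindromic HNF1 motif that contains it, CAAAGTCCA for HNF4 and the direct repeat element of LXR. Of 32851 RefSeq windows of this length, AGATAA was in 11.2%, TTTATNG in 10.9%, GTTAAT in 7.10%, the longer HNF1 motif in 0.0609%, CAAAGTCCA in 0.475% and the LXR element in 0.0152%. RefSeq windows were at hand for 9 of the 10 members. Of these, 3 held AGATAA (*Lct*, *Mgam* and *Dpp4*), 4 held TTTATNG (*Sis*, *Dpp4*, *Mep1a* and *Tmprss15*), 2 held GTTAAT (*Sis* and *Tmprss15*) and 1 held CAAAGTCCA (*Treh*). The *Lct* window held AGATAA on both strands, with first bases at -101 and -90 from the start site. The *Anpep* and *Enpep* windows held none of these letter strings, and no member's window held the LXR element or the longer HNF1 motif.

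Genes of other lists were read in the same duodenal comparison, in which 30.0% of all genes tested had a higher mean after SBR. The brush border scaffold list (14 genes for the structure of the microvillus) had a higher mean after SBR for 14 of 14 genes, with a median difference of 0.56, 5 genes without overlap and 1 with an unadjusted p under 0.05, the ezrin gene *Ezr* (1.16 ± 0.40 SE). Sugar and peptide transporters were higher for 8 of 8 tested genes, with a median of 0.93. Those without overlap included the fructose transporter gene *Slc2a5* (1.67), the glucose transporter gene *Slc5a1* (1.78) and *Slc3a1* (1.29), and were not only sugar transporters. Other brush border hydrolases were higher for 9 of 11 tested genes, with a median of 0.69. Crypt proliferation genes were lower for 7 of 7, with a median of -1.23 and 6 with an unadjusted p under 0.05, such as *Olfm4* (-1.23) and *Mki67* (-1.39). Immune genes were lower for 6 of 6 tested (median -0.90), among them the macrophage gene *Lyz2* (-1.45), fibroblast genes for 6 of 6 (median -0.64), with *Pdgfra* at -1.19 and *Dcn* at -1.13, and smooth muscle genes for 7 of 7 (median -0.63). General epithelial genes were lower for 5 of 8 (median -0.24). Pancreatic genes were lower for 7 of 7 (mean log2 value 1.58 to 6.68 in SBR vehicle and 3.42 to 7.28 in sham) and both Brunner gland genes, *Muc6* and *Tff2*, were lower. None of these genes was called after adjustment over all genes. With each library centred on its scaffold list, the difference of *Anpep* was 0.87 and that of *Enpep* 0.82 (adjusted p = 0.0748 and 0.106). The part of cell makeup in these differences was not tested.

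**Figure D3:**
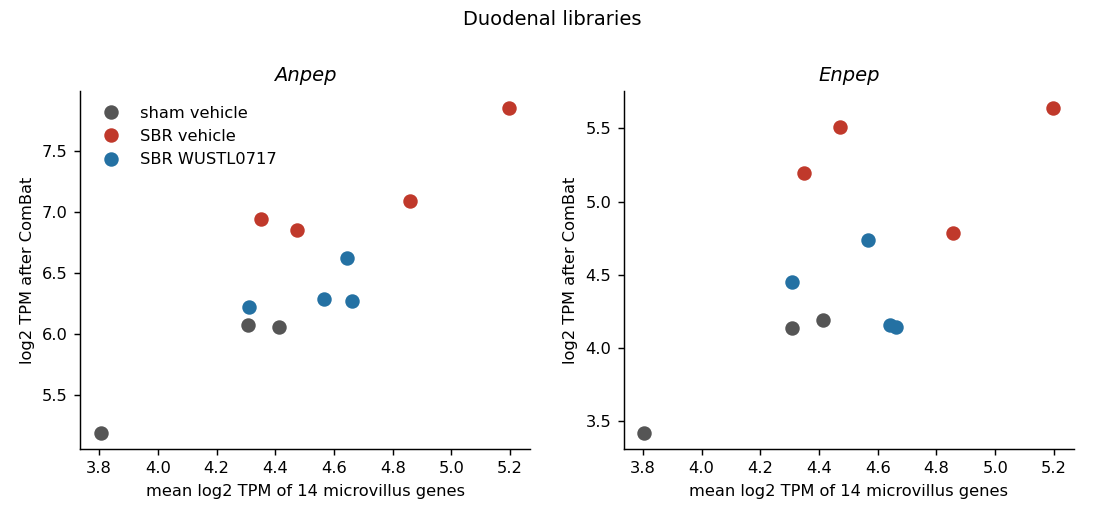
*Anpep* and *Enpep* in the 11 duodenal libraries, as log2 TPM, against the mean log2 TPM of the 14 microvillus scaffold genes in the same library. Pearson's r is 0.87 for *Anpep* and 0.64 for *Enpep* (n = 11), and the SBR vehicle libraries lie above the other groups for both genes, with *Anpep* from 6.85 to 7.86 and *Enpep* from 4.78 to 5.64.

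In the ileum, SBR vehicle and sham vehicle differed most in *Lct*. It was lower in all 4 SBR libraries, while *Sis*, *Mgam* and *Mep1a* were higher in all 4, and the aminopeptidases did not separate. *Tmprss15* was not tested here. Of the 9 members tested, 6 had a higher mean after SBR, with a median difference of 0.24 against 0.07 over all genes. Groups did not overlap for 3 members with SBR higher and 1 with SBR lower, beside 6.73% and 2.77% of the 15772 genes tested. Limma called 0 of 9 members at an adjusted p under 0.05, where it called 55 genes (0.349%), and 3 members, beside 8.46% of all genes, had an unadjusted p under 0.05. The 2-sample test called 0 members and 5 genes, and library weights 1 member and 279 of the 15772 genes.

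*Lct* encodes lactase, which splits the milk sugar lactose and is most active before weaning, and lies at chr1:128284756-128328318. Its ileal log2 TPM was 4.21, 4.55 and 4.88 in sham vehicle and 2.18, 0.98, 0.06 and 1.60 in SBR vehicle. The SBR values spread widely, and all lay below the lowest sham value. The difference was -3.34 ± 0.74 (SE, limma adjusted p = 0.0981), with an exact permutation p of 0.0286. Read as log2 of TPM plus 1, the values gave -2.07 with a pseudocount of 5 (limma adjusted p = 0.0333) and -4.42 with 0.1 (0.233). ComBat had already moved these values, so this shows only that the size depends on the scale. The difference stayed between -3.66 and -2.96 when any library was left out.

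*Mgam* was at 7.99, 8.06 and 7.19 in the sham vehicle ileum and at 9.64, 8.87, 8.09 and 8.16 after SBR, a difference of 0.94 ± 0.42 (SE, limma adjusted p = 0.566). The groups nearly touched, at 8.06 and 8.09. *Mep1a* was at 3.71, 4.26 and 4.72 in sham and at 4.95, 4.72, 4.82 and 5.44 after SBR, a difference of 0.75 ± 0.29 (SE, limma adjusted p = 0.45), and the highest sham value and the lowest SBR value were equal to 2 decimals. *Sis* was at 5.19, 5.14 and 4.50 in sham and at 5.55, 5.40, 5.24 and 5.29 after SBR, a difference of 0.43 ± 0.25 (SE, limma adjusted p = 0.755). The exact permutation p was 0.0286 for *Sis* and *Mep1a* and 0.143 for *Mgam*. Each size leaned on 1 library, the difference being 0.20 for *Sis* without sham library 3, 0.49 for *Mep1a* without sham library 1 and 0.63 for *Mgam* without SBR vehicle library 1.

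The remaining ileal members overlapped. *Treh* had a mean higher by 0.69 after SBR. *Anpep*, *Enpep*, *Dpp4* and *Mep1b* differed by -0.11 to 0.24. Ileal *Anpep* was at 10.17, 10.12, 9.90 and 10.42 after SBR and at 9.95, 10.23 and 10.21 in sham, so the range after SBR enclosed the sham values.

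In the ileum 57.7% of all genes tested had a higher mean after SBR. Of the other ileal lists, other brush border hydrolases included 5 of 13 tested genes with an unadjusted p under 0.05, all lower after SBR, such as *Asah2*, a ceramidase (-1.59), *Enpp3* (-1.53) and *Enpp7*, the alkaline sphingomyelinase (-1.41). None of these was called. Of the transporters, the amino acid transporter gene *Slc36a1* was called lower (-2.60, adjusted p = 0.0159). All 6 genes listed as ileal markers had a higher mean, including *Nr0b2*, which was lower in the ileum than in the duodenum. Limma called the bile acid genes *Fabp6* (2.05 ± 0.29 SE, adjusted p = 0.0137) and *Slc10a2* (2.02 ± 0.30, adjusted p = 0.0145). Of the duodenal markers, *Slc40a1* was higher without overlap (1.48 ± 0.37, limma adjusted p = 0.142), and *Gata4*, given next, was lower. Among the 12 transcription factors of enterocyte genes, 1 had an unadjusted p under 0.05, *Gata4* (-2.15 ± 0.79, adjusted p = 0.407), a factor of the proximal intestine. General epithelial genes were higher for 8 of 8 (median 0.50), fibroblast genes for 6 of 6 (median 0.70), smooth muscle genes for 8 of 8 (median 0.45) and immune genes lower for 6 of 6 (median -0.54), and the scaffold list had a median of 0.08. The mean of the smooth muscle list stood apart in 1 sham library, library 3, at 5.32 against 3.76 and 3.85. The part of these lists in the differences of the members was not tested.

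**Figure D4:**
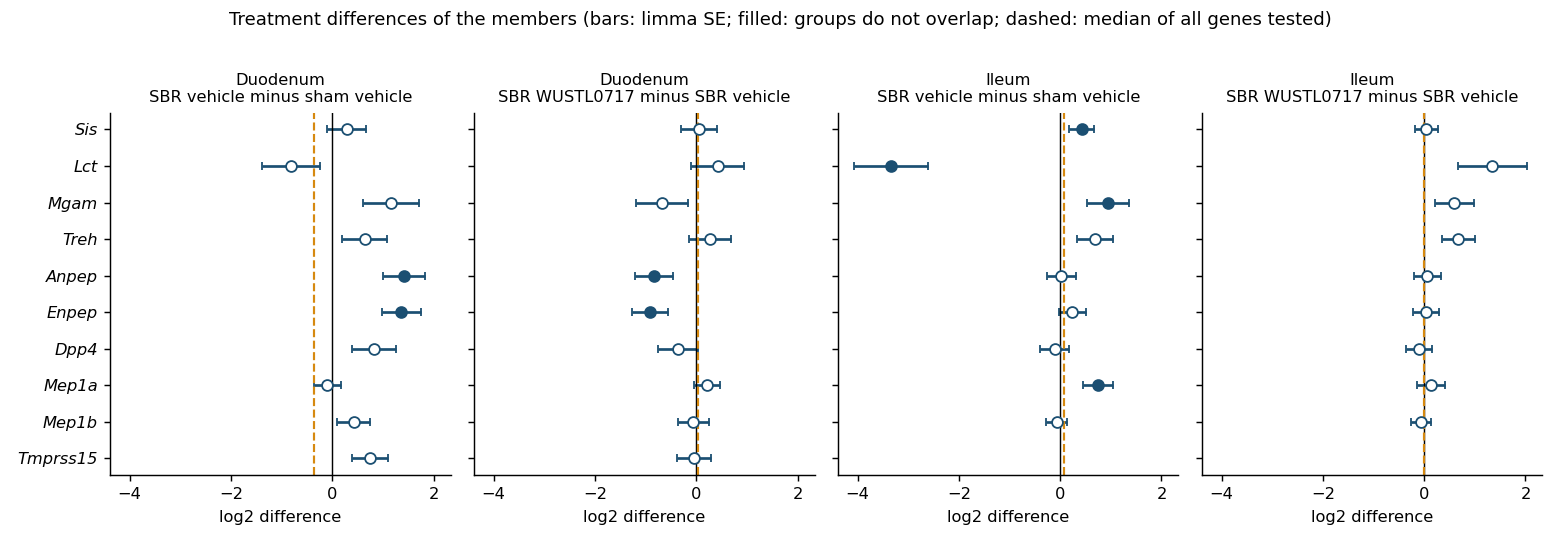
Log2 difference with the limma standard error for each member in 4 comparisons, with filled points where the groups do not overlap and a dashed line at the median over all genes tested (-0.36, 0.04, 0.07 and 0.00 from left to right). *Anpep* and *Enpep* separate in both duodenal comparisons in opposite directions, *Lct* lies at -3.34 in the ileum after SBR, and no member separates in the ileum with WUSTL0717.

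The following comparisons asked what WUSTL0717 changed after SBR. They use the same SBR vehicle libraries as the comparisons with sham, so a value that is high or low in SBR vehicle enters both. The compound's own response was visible in the LXR target list, of which limma called 2 of 9 genes in the duodenum, *Scd1* (6.34 ± 0.61 SE, adjusted p = 0.00306) and *Abca1* (3.55 ± 0.50, 0.0136), and 5 of 9 in the ileum.

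In the duodenum, the members with WUSTL0717 centred on the vehicle level, with a median difference of -0.05 against 0.04 over all genes, and *Anpep* and *Enpep* stood below it. Limma called 0 of 10 members, 39 genes (0.258%) being called in all, and 2 members, beside 5.31% of all genes, had an unadjusted p under 0.05. The 2-sample test and library weights each called 0 members, beside 2 and 85 genes. Groups did not overlap, with WUSTL0717 lower, for 2 of 10 members and 1.05% of all genes. *Anpep* was at 6.27, 6.22, 6.28 and 6.62 with WUSTL0717 against 7.09, 6.94, 7.86 and 6.85 with vehicle, a difference of -0.84 ± 0.38 (SE, limma adjusted p = 0.92). Every treated value also lay above the sham values, of which the highest was 6.07. *Enpep* was at 4.15, 4.45, 4.74 and 4.15 against 4.78, 5.19, 5.64 and 5.51, a difference of -0.91 ± 0.35 (SE, limma adjusted p = 0.733), and its treated range met the sham range. The exact permutation test gave p = 0.0286 for both genes. Without SBR vehicle library 3, the highest for both, the differences were -0.61 and -0.79.

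The other 8 duodenal members overlapped between WUSTL0717 and vehicle. Their differences ran from -0.68 for *Mgam* to 0.42 for *Lct*. *Treh* was at 6.34, 5.36, 6.27 and 6.26 with WUSTL0717 and at 5.60, 5.59, 6.21 and 5.72 with vehicle, so that 3 of 4 treated values were above all vehicle values. *Sis* and *Tmprss15* differed by 0.05 and -0.04. Of the other lists, where 54.1% of all genes tested had a higher mean with WUSTL0717, sugar and peptide transporters were lower for 8 of 8 tested genes (median -0.37), with *Slc2a5* (-1.28) and *Slc5a1* (-1.06) not overlapping, and the scaffold list was lower for 12 of 14 (median -0.18). Pancreatic genes were higher for 7 of 7 (median 2.10, mean log2 value 4.36 to 7.48 with WUSTL0717), and none of these had an unadjusted p under 0.05. Their part in the differences of the members was not tested.

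In the ileum, the groups of SBR WUSTL0717 and SBR vehicle overlapped for every member tested, against 3.83% of genes that did not overlap. Limma called 0 of 9 members and 11 genes (0.0697%), 0 members had an unadjusted p under 0.05, beside 6.87% of all genes, and the 2-sample test and library weights each called 0 members, beside 1 and 18 genes. *Lct* was at 2.83, 0.26, 3.16 and 3.97 with WUSTL0717 and at 2.18, 0.98, 0.06 and 1.60 with vehicle. Thus 3 of 4 treated values lay above all vehicle values and 1 among the lowest, and the mean was higher by 1.35. All 4 treated *Lct* values were below the lowest sham value of 4.21. *Treh* was at 4.74, 4.51, 5.41 and 5.22 against 4.29, 4.02, 3.80 and 5.06, higher on average by 0.68. *Mgam* was higher on average by 0.59, and the other members differed by -0.10 to 0.14.

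The last comparison tested whether the regions differed in the effect of SBR or of WUSTL0717. For SBR, the interaction of region and surgery had an unadjusted p under 0.05 for 3 of 10 members, all with the ileal effect below the duodenal one, beside 2.57% of genes in that direction and 13.8% in either. None was called (0 of 10 members, with 12 genes or 0.0754% called in all, and 2 members with library weights, where 1989 of the 15923 genes were called). The effect on *Anpep* was smaller in the ileum by 1.39 ± 0.48 (difference -1.39, limma adjusted p = 0.279), that on *Enpep* differed by -1.13 ± 0.45 (adjusted p = 0.327) and that on *Lct* by -2.52 ± 0.97 (adjusted p = 0.308). The median interaction over all genes was 0.44, in the opposite direction. For WUSTL0717, *Enpep* alone of the 10 members had an unadjusted p under 0.05, with a difference of 0.95 ± 0.42 (limma adjusted p = 1), beside 3.33% of all genes. No member was called (0 of 10, also with library weights, where 8 genes were called), and 4 genes (0.0251%) were called in all.

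Across the group means, the order of levels separated the members into kinds. For *Anpep* the 3 duodenal groups were ordered sham vehicle, SBR WUSTL0717 and SBR vehicle with no overlap between neighbours, and the 3 ileal groups above them overlapped. For *Enpep* the same order held, with sham vehicle and SBR WUSTL0717 overlapping. *Dpp4*, *Mep1a* and *Mep1b* had all duodenal groups below all ileal ones, and only ileal sham vehicle and SBR vehicle of *Mep1a* did not overlap among neighbours of the same region. *Lct* ran from ileal SBR vehicle at the bottom to ileal sham vehicle at the top, and only the topmost step did not overlap.

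Members varied together only in part. Over the 11 duodenal libraries, the 45 pairs of members had Pearson's r from -0.34 to 0.93, with a median of 0.50, and *Mep1b* with *Tmprss15* (0.93) and *Anpep* with *Enpep* (0.88) were the closest. Over the 11 ileal libraries, 36 pairs ran from -0.57 to 0.87 with a median of 0.25, and *Sis* with *Mgam* (0.87) and *Enpep* with *Mep1a* (0.83) were the closest. *Lct* was negatively related to *Sis* in the ileum (-0.57). These are descriptions over libraries that share groups, library composition and an unknown depth. The genes outside the list closest to the mean of the standardized members were *Ccser2* (0.95), *Enpp3* (0.95), *Ube2j2* (0.95), *Asah2* (0.95) and *Mpp1* (0.94) in the duodenum, among 15085 genes, and *Phyh*, *Nat8*, *Osbpl6* and *Grpel2* (each 0.93) and *Aldh9a1* (0.91) in the ileum, among 15769. *Enpp3* and *Asah2*, like the members, encode hydrolases of the enterocyte surface.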

How the data were processed

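RNA was sequenced from 22 intestinal libraries (batch 1) and 18 liver libraries (batch 2, not used here), after removal of ribosomal RNA. The authors aligned reads with STAR to GRCm38 with Ensembl annotation, counted uniquely aligned reads with featureCounts (tools also named in the submitters' processing notes), computed TPM, took log2, corrected batches with ComBat and deposited 1 table of log2 TPM for 15958 genes. The pseudocount of the log is not given in the sources used here and was taken as 1 in alternatives that change it. Those alternatives turn back values that ComBat had already moved, so they do not restore TPM and serve only as a change of scale. The header is 1 field short, so columns were matched by position after checking it on tissue markers.

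The limma package (3.58.1, run under R 4.3.3) was applied to genes averaging 1 or more on the log2 TPM scale over the libraries of a fit. The prior variance followed the mean, p-values were adjusted by Benjamini-Hochberg over every gene in the fit, and a gene was called at an adjusted p under 0.05. Treatments were compared in a fit of the 3 groups of a region, and regions and interactions in a fit of all 6 groups. The fits were tested on simulated data. For each member, all ways of splitting the libraries were also enumerated (an exact permutation test, two-sided) in Python 3.11.15, with numpy 2.4.6 and pandas 2.3.3, and figures were drawn with matplotlib 3.10.9. A permutation test within 1 batch is unaffected by ComBat's linear change of a gene.

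Statistics were printed for members whose groups did not overlap or whose unadjusted p was under 0.05 (*Tmprss15* in the ileum aside), and from each other list at most 3 genes with the smallest p or genes that check a label were named. Members and lists were chosen with earlier results of these data known. Alternatives were no filter, a filter at 3, pseudocounts of 5 and 0.1, centring libraries on their median or on the microvillus list, a 2-sample test, library weights, a replicate block and leaving out each library. Gene positions are those of GENCODE M21 (GRCm38), and promoters are from RefSeq.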

Additional observations from a re-analysis of the deposited data

Results flagged for a closer look

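Within groups of 4 libraries, 40 sets of values of the members were examined for a library far from the other 3, and 4 were flagged. Chance alone flags about 1 in 20 such sets where values spread normally, which does not hold for ileal *Tmprss15*, at or near its lowest listed value in nearly every library. The value given is the gap between the farthest library and its nearest neighbour as a share of the group's range. *Treh* in the duodenum with SBR WUSTL0717 had its lowest library (5.36 against 6.26 to 6.34) at 0.915. *Anpep* in the same group had its highest library (6.62 against 6.22 to 6.28) at 0.837. *Mep1b* in the ileum with SBR vehicle had its lowest library (4.94 against 5.08 to 5.11) at 0.836. *Tmprss15* in the ileum with SBR vehicle had its highest library (0.55 against -0.89 to -0.86) at 0.979. The flagged *Treh* and *Anpep* values came from different libraries, replicates 2 and 4.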

How the results depend on the processing

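Depth per library is unknown, so no interval for counting error could be given, and groups of 3 or 4 limit every comparison. Of the values of named members under an alternative, 527 kept their direction and side of the threshold, 31 lost a call, 7 gained one and 9 changed sign. The number of members called went from 0 to 2 in the duodenum after SBR with library weights (genes called from 0 to 2497) and ranged from 0 to 1 when 1 library was left out (1 without SBR vehicle library 1, with 589 genes). In the ileum after SBR it went from 0 to 1 with a pseudocount of 5 (genes called from 55 to 54) and with library weights (to 279), in SBR vehicle between regions from 8 to 5 with a filter at 3, where 7 members were tested and 4826 of 8018 genes were called, and for the interaction of region and SBR from 0 to 2 with library weights (genes called from 12 to 1989). The cause of the other shifts was not tested. Centred on the library median, the ileal difference from the duodenum became -0.25 for *Sis* and -0.29 for *Mep1b* in SBR vehicle, and -0.21 and -0.25 in SBR WUSTL0717. Centred on the microvillus list it became -0.040 for *Mep1b* in sham vehicle, -0.077 for *Sis* and -0.12 for *Mep1b* in SBR vehicle, and -0.48 and -0.53 in SBR WUSTL0717. Same-numbered libraries were not treated as pairs, since not every pair's deviations from the group means correlated by over 0.1: 5 of 11 pairs across regions did, 3 of 10 across groups of the duodenum and 1 of 10 of the ileum. With the replicate number as a block, 6 and 7 members were called between regions in SBR vehicle and SBR WUSTL0717, in place of 8 and 9, while genes called went from 9068 to 9414 and from 8895 to 9246, *Sis* and *Mep1b* losing the call in each. *Treh* in the sham vehicle comparison of regions also lost its call under the 2-sample test (adjusted p = 0.153).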
